A study of Nicotiana tabacum with 16 samples.

Results

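Tobacco (Nicotiana tabacum) roots with the recessive alleles nic1 and nic2 were compared directly with roots carrying the recessive allele myc2a. The libraries were chosen by the genotype given in the labels, which put 3 libraries in nic1 nic2 and 5 in myc2a, 8 of the 16 libraries of the series. Both genotypes were in the background of K326, a flue-cured tobacco cultivar, and are described in the study's title as nearly isogenic. Each line therefore served as the other's comparison, and the nic1 nic2 myc2a libraries (4) and the K326 libraries (4) were outside the contrast. They entered the filter on low counts, the scaling and the estimate of the spread between replicates, and were used to place the values. All libraries came from roots taken 18 h after topping, the removal of the flowering shoot apex. The labels speak of 3 to 5 plants per genotype, but do not say that each library is a separate plant, so the p-values rest on the spread between samples, which may in part be technical. How many independent lines stand behind each genotype is not given in the labels either.

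Nicotine is made in tobacco roots and carried to the leaves, and topping stimulates its synthesis through jasmonate signalling. Nic1 and Nic2 are loci at which recessive alleles lower leaf nicotine, and at Nic2 lie clustered ERF genes, whose products bind promoters of genes of nicotine synthesis. MYC2 proteins are bHLH transcription factors that are released from JAZ repressors when jasmonate is perceived and that act on promoters of nicotine synthesis together with these ERFs. The study's design asks how root expression changes with the genotype at these loci, and the direct comparison sets the recessive lines against each other.

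The table held 63697 gene models, all of which belong to the comparison, and 43009 had enough counts to be tested. Gene models are named by an ID group and a serial number, as in Ntab08g028910-1.1, and none could be paired with a gene name. The genes at the 3 loci, the genes of nicotine synthesis and markers of root cells were not analysed here by name, so neither the genotypes nor the tissue was checked against them. Serial numbers are treated as an order in the table, not as chromosome positions. By these numbers, 356 gene models of ID group 18 (18660 to 22210) and 1284 of ID group 11 (13420 to 26250) are given apart from the other 62057. The ends of both stretches were found earlier on these libraries.

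Total counts were 32.2 M to 34.9 M in nic1 nic2 libraries and 35.4 M to 39.8 M in myc2a libraries. Levels are given as CPM, counts scaled to library sizes that were adjusted by the trimmed mean of M values, and are not corrected for gene length. Each library is RNA of a whole root sample, so fewer cells of a type and less RNA per cell cannot be told apart. In each genotype 1 library stood apart from its replicates. In nic1 nic2 replicate 3, 41283 gene models were detected, against 44504 and 43866 in replicates 1 and 2. In myc2a replicate 5, 42797 were detected, against 44215 to 45294 in the other 4. Values without these libraries stand beside the results that they change.

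Of the 43009 gene models tested, 451 (1.05%) differed between nic1 nic2 and myc2a roots in edgeR's quasi-likelihood test at an adjusted p of 0.05, and 7001 had an unadjusted p under 0.05. Levels were higher in nic1 nic2 for 205 of them (0.477%) and lower for 246 (0.572%). In 3179 gene models (7.39%) the 3 nic1 nic2 libraries did not overlap with the 5 myc2a libraries. By region, ID group 18 held 115 calls within its stretch, ID group 11 held 79 within its own, and 257 lay elsewhere. The split by direction depended on the scaling and on single libraries. It was 348 higher and 237 lower when libraries were scaled by their totals only, of which 215 and 126 lay outside the stretches. It was 683 higher and 339 lower without myc2a replicate 1, and 459 higher and 912 lower without myc2a replicate 5. Without nic1 nic2 replicate 2 and 3 the count in all was 254 and 215, and without myc2a replicates 2, 3 and 4 it was 229, 262 and 294. On the 8 libraries of the contrast alone, 41977 gene models were tested and 134 were called, 39 higher and 95 lower.

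**Figure D1:**
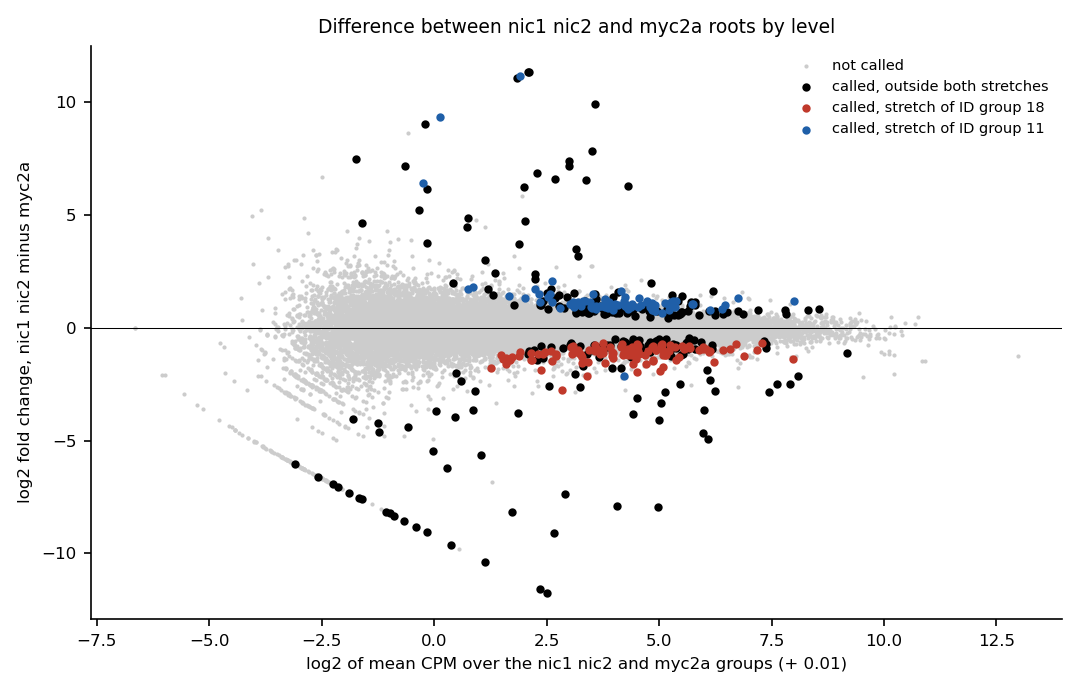
Each point is a gene model tested, placed by the log2 of its mean CPM over the nic1 nic2 and myc2a groups (x axis, after adding 0.01) and its log2 fold change, nic1 nic2 minus myc2a (y axis). Called gene models of the stretch of ID group 18 (115, red) lay below zero, those of ID group 11 (79, blue) lay above zero with 1 exception, and those outside the stretches (257, black) lay on both sides, with 127 above and 130 below.

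In nic1 nic2 roots, the stretch of ID group 18 was at about 54% of its level in myc2a roots. The median over its 254 tested gene models was 53.8, 54.0 and 52.8% of the myc2a mean in nic1 nic2 replicates 1, 2 and 3 (53.5 ± 0.677%, SD, n = 3). The 5 myc2a libraries lay between 96.2 and 99.9% of that same mean. The libraries outside the contrast stood with myc2a, at 98.8 to 102% in nic1 nic2 myc2a and 97.7 to 99.4% in K326. Over the 41917 gene models outside both stretches, the nic1 nic2 libraries were at 96.0 to 98.4% of the myc2a mean.

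All 115 calls in this stretch were lower in nic1 nic2, 45.3% of its tested members against 1.05% of all gene models tested, and 234 of the 254 members had a negative log2 fold change. The median log2 fold change was -0.97, against -0.0018 over all gene models tested. The groups did not overlap in 151 members (59.4%, against 7.39% of all gene models tested). The share called followed the level: 0 of 39 members under 1 CPM, 28 of 97 from 1 to 10 CPM and 87 of 118 over 10 CPM, while the median log2 fold change in these classes was -0.73, -0.97 and -0.98. Of the 215 members with a mean of at least 1 CPM, 134 (62.3%) were at 40 to 65% of the myc2a level in nic1 nic2, against 4.44% of gene models outside the stretches. Only 2 were under 25% and 11 were over 100%.

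The lower level ran evenly along the stretch. Members with a mean of at least 1 CPM were split into 10 consecutive parts of 21 or 22 gene models. Over these parts the medians of the 3 nic1 nic2 libraries lay between 42.9 and 61.1% of the myc2a mean. Each part held 8 to 15 calls. In the 50 gene models of that level before the stretch the medians were 99.6, 98.9 and 103%, and in the 50 after it 101, 96.4 and 104%. Among these 50 there were 0 calls on either side. The ends were found on these libraries, so the step at each end and the share called describe the stretch and do not test it.

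The member with the most counts, chosen for that after values were seen, was Ntab18g020970-1.1, with 164, 170 and 87.2 CPM in nic1 nic2 replicates 1 to 3, against 364, 397, 417, 343 and 300.3 CPM in myc2a replicates 1 to 5. Its groups did not overlap, and the log2 fold change was -1.38 ± 0.20 (SE; edgeR adjusted p = 0.00167). The next by count, Ntab18g021820-1.1, had 108, 107 and 144 CPM in nic1 nic2 and 181, 199, 186, 188 and 211 CPM in myc2a (log2 fold change -0.69 ± 0.12 by edgeR, adjusted p = 0.00814). Without nic1 nic2 replicate 2 its edgeR adjusted p was 0.0511, within a range of 1.6e-06 to 0.132 over 19 alternatives.

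Among members without overlap at 2 CPM or more in myc2a, the largest differences went beyond the common level. Ntab18g018760-1.1 was at 2.78, 1.81 and 1.00 CPM in nic1 nic2 and at 8.76, 17.9, 18.8, 13.9 and 3.34 CPM in myc2a, so that myc2a replicate 5 came close to nic1 nic2 (log2 fold change -2.75 ± 0.51, edgeR adjusted p = 0.0109). Its neighbour Ntab18g018750-1.1 had 10.9, 16.4 and 13.6 CPM in nic1 nic2 and 32.0, 67.4, 80.7, 42.7 and 34.0 CPM in myc2a (log2 fold change -1.91 ± 0.35 by edgeR, adjusted p = 0.0107). Ntab18g020500-1.1 had 13.2, 11.1 and 3.60 CPM in nic1 nic2, against 42.6, 39.4, 45.0, 38.5 and 14.4 CPM in myc2a, again with replicate 5 lowest (log2 fold change -1.95 ± 0.37, edgeR adjusted p = 0.0141). The call of Ntab18g018760-1.1 was lost without nic1 nic2 replicate 2 (edgeR adjusted p = 0.0591) or 3 (0.082), within a range of 2.68e-07 to 0.138, and that of Ntab18g018750-1.1 without nic1 nic2 replicate 3 (0.0704, range 1.49e-06 to 0.0704). That of Ntab18g020500-1.1 was lost with edgeR on the 8 libraries of the contrast alone (adjusted p = 0.162, range 4.29e-06 to 0.162).

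**Figure D2:**
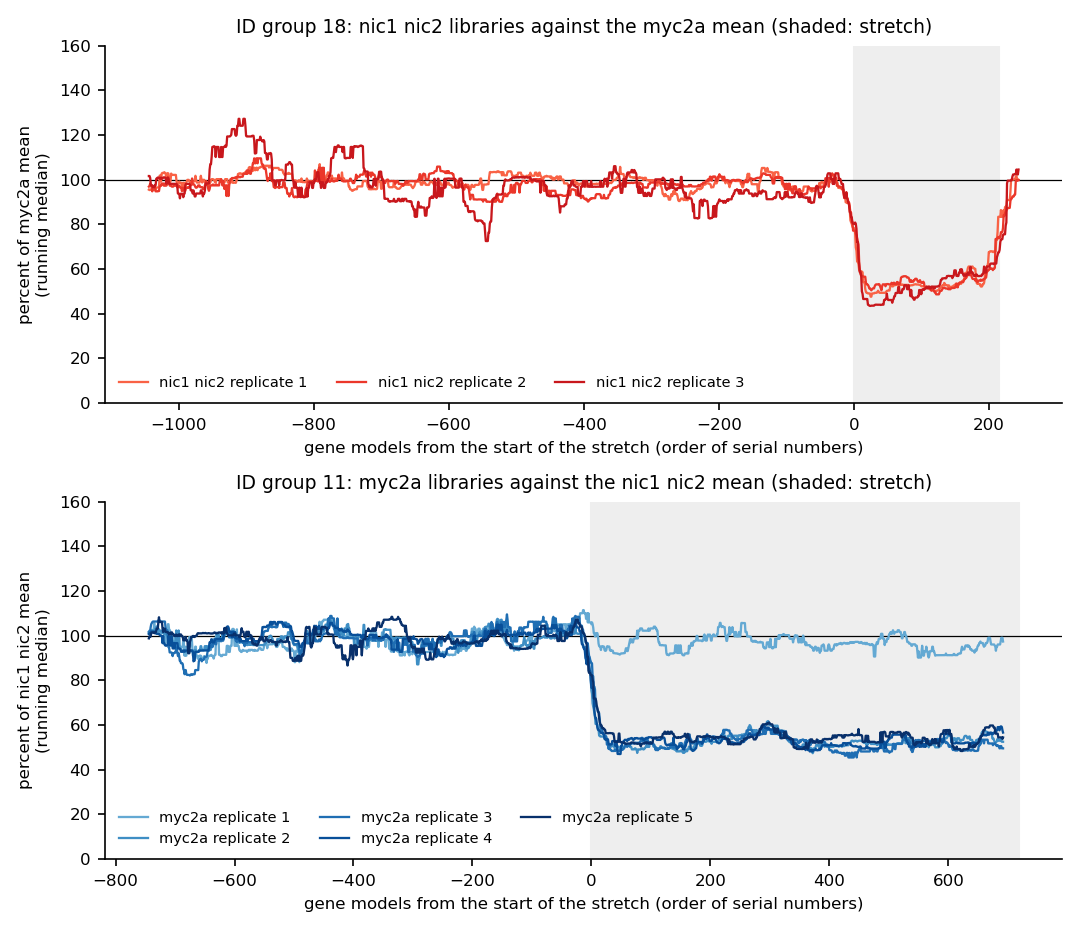
Running medians over 51 neighbouring gene models of the level in each library, in percent of the mean of the other genotype (y axis), against the number of gene models from the start of the stretch (x axis), with the stretch shaded. In ID group 18 (top) the 3 nic1 nic2 libraries dropped together to about 54% of the myc2a mean, and in ID group 11 (bottom) 4 myc2a libraries dropped to about 55% of the nic1 nic2 mean while myc2a replicate 1 stayed at 95.6%.

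In the stretch of ID group 11 the direction was the opposite, and the myc2a libraries were divided. The median over 838 tested gene models was 53.8, 54.5, 55.1 and 55.8% of the nic1 nic2 mean in myc2a replicates 2 to 5, but 95.6% in myc2a replicate 1. The mean was 54.8 ± 0.853% over replicates 2 to 5 (SD, n = 4) and 63.0 ± 18.3% with replicate 1 (SD, n = 5). The nic1 nic2 libraries were at 98.5 to 99.7% of their own mean, those of nic1 nic2 myc2a at 95.3 to 98.0%, and those of K326 at 96.6 to 100.1%. On this stretch, myc2a replicate 1 therefore stood with the other genotypes.

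With all libraries, 79 members (9.43%, against 1.05% of all gene models tested) were called, 78 higher and 1 lower in nic1 nic2, although 796 of the 838 had a positive log2 fold change (median 0.73). Without myc2a replicate 1, 405 members were called, 404 higher and 1 lower, which was 48.4% of the stretch against 2.38% of all gene models tested, and the median log2 fold change was 0.98. All 79 calls made with replicate 1 were also made without it. The count of calls with all libraries also moved with other libraries: it was 25 and 28 without nic1 nic2 replicate 2 and 3, and 26, 32 and 39 without myc2a replicates 2, 3 and 4.

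The level of myc2a replicates 2 to 5 was even along this stretch as well. Of 718 members with a mean of at least 1 CPM, 513 (71.4%) were at 40 to 65% of the nic1 nic2 level in these 4 libraries, against 3.59% of gene models outside the stretches. In 10 consecutive parts of 71 or 72 of these members, the medians of replicates 2 to 5 lay between 48.1 and 56.4%. Those of replicate 1 lay between 92.0 and 100.4%. In the 50 gene models of at least 1 CPM before the stretch, all 5 myc2a libraries were at 102 to 109%. There 2 calls were made, both lower in nic1 nic2. They were Ntab11g013170-1.1 and Ntab11g013350-1.1, named after values were seen, with log2 fold changes of -0.79 and -0.65 (edgeR adjusted p = 0.0206 and 0.0302). The stretch ran to the last gene model of that level in the ID group. Its start was found on these libraries too, so the step there and the share called describe the stretch and do not test it. Without replicate 1, the share called was 2.54% of members under 1 CPM, 35.5% from 1 to 10 CPM and 80.9% over 10 CPM.

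The split of the myc2a libraries could be seen in the members with the most counts, chosen for that after values were seen. Ntab11g020300-1.1 had 793, 867 and 900.3 CPM in nic1 nic2 replicates 1 to 3, against 380, 369, 493 and 352 CPM in myc2a replicates 2 to 5 and 1099 CPM in myc2a replicate 1. With replicate 1 this gene model was not called (log2 fold change 0.66 ± 0.31, edgeR adjusted p = 0.295), and without it the log2 fold change was 1.099 (edgeR adjusted p = 0.00369, range over alternatives 0.00369 to 0.548). Ntab11g024840-1.1 had 427, 348 and 295 CPM in nic1 nic2, against 107, 144, 155 and 132 CPM in myc2a replicates 2 to 5 and 234 CPM in replicate 1 (log2 fold change 1.21 ± 0.22, edgeR adjusted p = 0.0101). On the 8 libraries alone that call was lost (edgeR adjusted p = 0.0767, range 2.93e-05 to 0.0767).

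A few members of this stretch were nearly absent in all 5 myc2a libraries, replicate 1 included. Nearly absent here means a called gene model with a fitted difference of 16-fold or more and less than 0.5 CPM in each library of the lower genotype. Ntab11g019640-1.1 had 3.81, 6.89 and 11.9 CPM in nic1 nic2 and 0 counts in the 5 myc2a libraries, at least 93.6-fold higher in nic1 nic2 when 3 counts per library are allowed in myc2a (edgeR adjusted p = 7.44e-06). Ntab11g018170-1.1 had 3.75, 2.31 and 0.4003 CPM in nic1 nic2, also against 0 counts in myc2a (at least 26.8-fold, edgeR adjusted p = 0.000159), a call lost on the 8 libraries alone (0.0655, range 1.81e-14 to 0.0655). The third, Ntab11g018440-1.1, was at 1.66 ± 0.286 CPM in nic1 nic2 (SD, n = 3) and 0.0156 ± 0.0348 CPM in myc2a (SD, n = 5). All of them were present in nic1 nic2 myc2a and in K326, with means of 1.85 to 9.76 CPM.

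Ntab11g021770-1.1 was the largest of the other differences upward, with 12.3, 8.95 and 8.69 CPM in nic1 nic2, against 4.30, 0.645, 2.01, 2.86 and 1.89 CPM in myc2a (log2 fold change 2.09 ± 0.41 by edgeR, adjusted p = 0.018). Its call was lost without nic1 nic2 replicate 1 (0.0559) or myc2a replicate 3 (0.0546), with edgeR adjusted p-values of 0.00019 to 0.121 over the alternatives. Only Ntab11g019180-1.1 went the other way, with 4.99, 3.18 and 12.7 CPM in nic1 nic2 and 57.4, 21.4, 24.9, 20.3 and 27.6 CPM in myc2a (log2 fold change -2.12 ± 0.47 by edgeR, adjusted p = 0.0372). That call was lost without nic1 nic2 replicate 1 (0.0803) or 2 (0.117) and without myc2a replicate 2 (0.055) or 3 (0.0629), with edgeR adjusted p-values of 0.00017 to 0.161 over the alternatives.

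Outside the stretches, 257 of 41917 gene models (0.613%) were called. They divided into 127 higher and 130 lower in nic1 nic2, spread over 25 ID groups in each direction (24 numbered ones and 1 without a number). The balance moved both ways over the alternatives. Higher calls outnumbered lower ones with library size only (215 higher and 126 lower), with limma-voom (136 and 102) and without myc2a replicate 1 (279 and 212). Lower calls outnumbered higher ones without myc2a replicate 5 (783 lower and 343 higher) and with DESeq2 (804 and 510). They also did so with the replicate number as a block (249 and 90). Only myc2a has a replicate 5, so the block also takes that library out of the contrast. Many differences were modest: 70 of the higher and 57 of the lower ones were under 2-fold, and the median absolute log2 fold change was 0.97 and 1.17. These medians were the same with gene models without counts set at their bounds. Over 4-fold there were 29 higher and 53 lower gene models (29 and 51 with bounds). The groups did not overlap in 122 of the calls in each direction, against 2858 (6.82%) of all 41917 gene models tested there. Calling selects for such separation. The count outside was 407, 137 and 81 without nic1 nic2 replicates 1, 2 and 3, and 491, 107, 126, 152 and 1126 without myc2a replicates 1 to 5.

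Of the gene models over 4-fold outside the stretches, 19 of the 29 higher ones were nearly absent in myc2a and 29 of the 53 lower ones in nic1 nic2. In the genotype that had them, the 19 had a median of 7.91 CPM and the 29 a median of 1.26 CPM. Counts were 0 in the whole lower genotype for 5 of the 19 and 17 of the 29. With 3 counts per library allowed there, 1 of the 19 and 11 of the 29 had a bound under 16-fold, so the depth cannot show that those are 16-fold lower.

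A run of neighbours in ID group 8 was present in nic1 nic2 roots and far lower in myc2a roots, where 7 of its 8 members were nearly absent. The 8 called gene models between 28880 and 28950 summed to 107, 102 and 111 CPM in nic1 nic2 replicates 1 to 3, against 0.778, 0.361, 0.435, 1.52 and 0.725 CPM in myc2a replicates 1 to 5. The means were 107 ± 4.69 CPM (SD, n = 3) and 0.763 ± 0.458 CPM (SD, n = 5), and the run was at 128 ± 7.195 CPM in nic1 nic2 myc2a and 119 ± 2.82 CPM in K326 (SD, n = 4 each). Unlike the stretch of ID group 11, this run was as low in myc2a replicate 1 as in the other myc2a libraries.

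Within the run, Ntab08g028930-1.1 had 24.6, 23.4 and 23.2 CPM in nic1 nic2 and counts in only 1 of the 5 myc2a libraries, replicate 2, at 0.103 CPM (log2 fold change 9.91 ± 0.40, edgeR adjusted p = 3.11e-10). Ntab08g028910-1.1 (8.83, 12.3 and 4.78 CPM in nic1 nic2) and Ntab08g028920-1.1 (6.47, 7.84 and 11.1 CPM) had 0 counts in myc2a, at least 107-fold and 105-fold higher in nic1 nic2 (edgeR adjusted p = 1.32e-07 and 8.33e-09). So did Ntab08g028900-1.1, with 6.71, 5.08 and 9.78 CPM in nic1 nic2 (at least 89.4-fold, edgeR adjusted p = 2.26e-08). Most of the residual count in myc2a was in Ntab08g028940-1.1, with 40.2, 37.9 and 39.6 CPM in nic1 nic2 against 0.648, 0.129, 0.0272, 1.28 and 0.4663 CPM in myc2a (log2 fold change 6.28 ± 0.43 by edgeR, adjusted p = 1.61e-07).

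The other 3 members were Ntab08g028950-1.1 (15.8 ± 2.95 CPM in nic1 nic2 and 0.0913 ± 0.0965 CPM in myc2a), Ntab08g028890-1.1 (3.16 ± 0.891 CPM in nic1 nic2 and 0.140 ± 0.152 CPM in myc2a) and Ntab08g028880-1.1 (0.584 ± 0.534 CPM in nic1 nic2 and 0 counts in myc2a, SD, n = 3 and 5). The bound of Ntab08g028880-1.1 was 7.27-fold higher in nic1 nic2. The call of Ntab08g028880-1.1, with an edgeR adjusted p of 0.0356, was lost without nic1 nic2 replicate 2 (0.0565) or 3 (0.151) and without myc2a replicate 2 (0.082), 3 (0.0774) or 4 (0.0724), within a range of 0.000304 to 0.151.

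The counterpart in nic1 nic2 roots was a run in ID group 24. Its 8 gene models between 14040 and 14150 summed to 0.333, 0.223 and 0.572 CPM in nic1 nic2 replicates 1 to 3, against 84.8, 114, 139, 106 and 155 CPM in myc2a replicates 1 to 5. The levels of nic1 nic2 myc2a (106 ± 16.3 CPM, SD, n = 4) and K326 (130 ± 17.4 CPM, SD, n = 4) were near that of myc2a (120 ± 27.8 CPM, SD, n = 5). The gene model with most of these counts, Ntab24g014050-1.1, had 0.181, 0.223 and 0.343 CPM in nic1 nic2 and 35.5, 55.2, 76.8, 53.5 and 91.0 CPM in myc2a (log2 fold change -7.94 ± 0.47 by edgeR, adjusted p = 2.41e-08).

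Ntab24g014090-1.1 and Ntab24g014140-1.1 had 0 counts in nic1 nic2 against means of 11.4 ± 5.38 and 10.1 ± 2.76 CPM in myc2a (SD, n = 5). This was at least 132-fold and 117-fold lower in nic1 nic2 (edgeR adjusted p = 3.88e-07 and 4.18e-09). Ntab24g014130-1.1 was at 0.0302, 0 and 0.229 CPM in nic1 nic2 and 13.3, 16.9, 12.1, 13.1 and 19.2 CPM in myc2a (log2 fold change -7.38 ± 0.46 by edgeR, adjusted p = 4.37e-08). Ntab24g014150-1.1 and Ntab24g014070-1.1 had 2 counts each in all nic1 nic2 libraries together, and their count ratios of myc2a to nic1 nic2 were 653 (exact 95% interval 181 to 5396) and 339 (93.8 to 2806), intervals that cover counting error only. The remaining Ntab24g014040-1.1 and Ntab24g014100-1.1 had 0 counts in nic1 nic2 and means of 0.988 and 0.931 CPM in myc2a (at least 11.4-fold and 10.7-fold lower). Only the call of Ntab24g014100-1.1 in this run was lost under any alternative: with limma-voom (adjusted p = 0.0634, and 0.0791 with sample quality weights) and with edgeR on the 8 libraries (0.124), in a range from 7.92e-06.

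**Figure D3:**
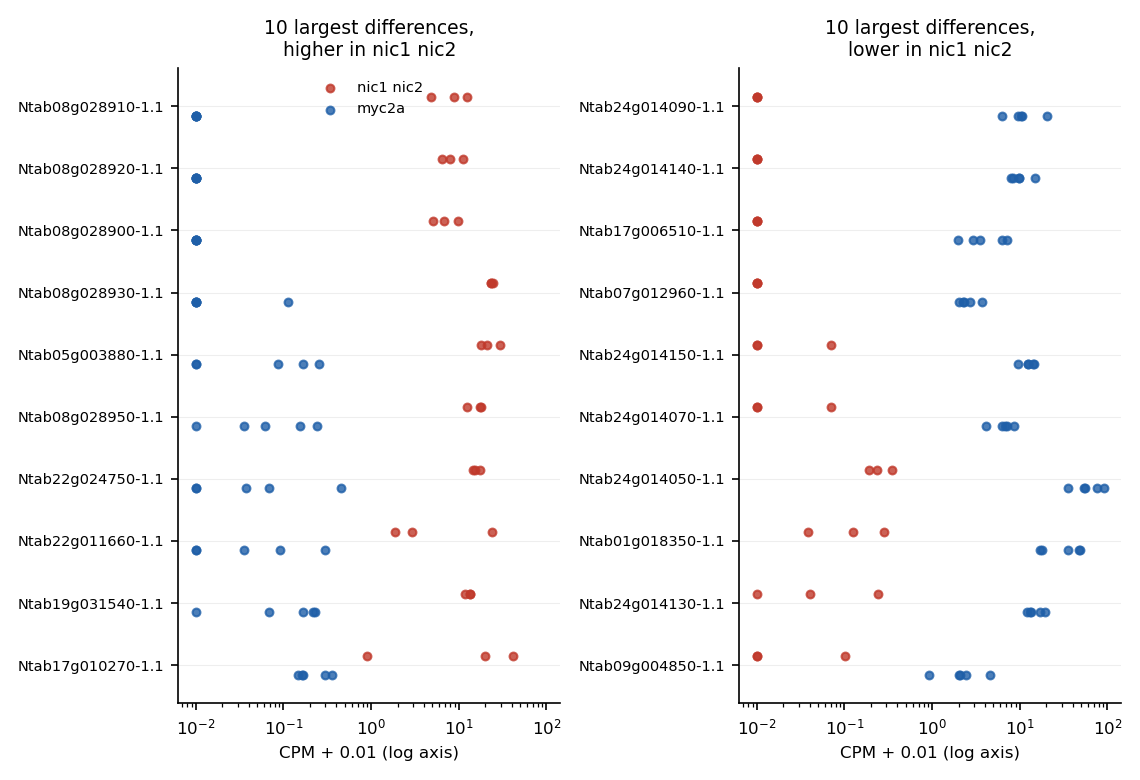
CPM in each library (x axis, log scale after adding 0.01) of the 10 gene models outside the stretches with the largest log2 fold changes in each direction (rows), among calls at 2 CPM or more in the higher genotype and without overlap. In the left panel nic1 nic2 (red, 3 libraries) lay above myc2a (blue, 5 libraries), with 5 of the 10 gene models from ID group 8, and in the right panel it lay lower, with 6 of the 10 from ID group 24.

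Single gene models were nearly absent in the same way. Ntab05g003880-1.1 had 29.3, 20.8 and 18.0 CPM in nic1 nic2, against 0.156, 0.0774, 0.245, 0 and 0 CPM in myc2a, a log2 fold change of 7.84 ± 0.41 with an edgeR adjusted p of 4.56e-09. Ntab22g024750-1.1 had 17.4, 15.5 and 14.4 CPM in nic1 nic2, and 0, 0, 0.0272, 0.0583 and 0.440 CPM in myc2a. Its log2 fold change was 7.16 ± 0.51 (edgeR adjusted p = 2.30e-07). Both calls held under all 19 alternatives, and the K326 means were 18.6 ± 1.81 and 17.3 ± 1.85 CPM (SD, n = 4).

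In the other direction, Ntab17g006510-1.1 was detected in myc2a alone, at 1.94, 3.54, 2.93, 7.15 and 6.29 CPM, with 0 counts in the 3 nic1 nic2, 4 nic1 nic2 myc2a and 4 K326 libraries. It was at least 50.4-fold lower in nic1 nic2 (edgeR adjusted p = 0.0027), and the call held under all 19 alternatives. However, it passed the filter on low counts only through the myc2a libraries, where it was high. The call is therefore given as a description of this gene model. Ntab01g018350-1.1 had 0.272, 0.0279 and 0.114 CPM in nic1 nic2 and 47.1, 35.6, 16.9, 17.7 and 48.1 CPM in myc2a (log2 fold change -7.90 ± 1.65 by edgeR, adjusted p = 0.026). In K326 it was at 6.61, 0.158, 8.94 and 0 CPM. That call was lost without nic1 nic2 replicate 1 (0.0591), 2 (0.101) or 3 (0.126) and without myc2a replicate 2 (0.0562), with adjusted p-values of 0.000432 to 0.247 over the alternatives.

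Some of the largest differences rested on libraries that differed widely within nic1 nic2, or came with few counts there. Ntab17g010270-1.1 had 0.877, 19.9 and 41.2 CPM in nic1 nic2 and 0.136 to 0.350 CPM in myc2a (log2 fold change 6.57 ± 0.91 by edgeR, adjusted p = 0.000886), and its call was lost with limma-voom (adjusted p = 0.256). Ntab22g011660-1.1 had 1.84, 24.04 and 2.95 CPM in nic1 nic2 and at most 0.285 CPM in myc2a (log2 fold change 6.86 ± 1.33 by edgeR, adjusted p = 0.0165). Its call was lost without nic1 nic2 replicate 2 (0.122) or myc2a replicate 2 (0.0584) or 3 (0.0533), with adjusted p-values of 0.0014 to 0.159 over the alternatives. Ntab09g004850-1.1 had 3 counts in all, from nic1 nic2 replicate 1, and 2.44, 2.01, 2.06, 0.904 and 4.51 CPM in myc2a, a count ratio of myc2a to nic1 nic2 of 83.9 (exact 95% interval 28.5 to 408, counting error only). That call (edgeR adjusted p = 0.0183) was lost without nic1 nic2 replicate 2 (0.0816) or 3 (0.103), within a range of 7.48e-06 to 0.159.

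Pairs of neighbours in ID groups 7 and 19 were nearly absent in nic1 nic2, and there nic1 nic2 myc2a went with nic1 nic2. Ntab07g012920-1.1 and Ntab07g012960-1.1 together had 0 counts in nic1 nic2, 3.76, 4.70, 3.23, 2.83 and 5.85 CPM in myc2a, at most 0.0584 CPM in nic1 nic2 myc2a, and 5.72 ± 1.40 CPM in K326 (SD, n = 4). The call of Ntab07g012960-1.1 (at least 29.8-fold lower, edgeR adjusted p = 6.5e-05) held under all 19 alternatives. Ntab19g030530-1.1 and Ntab19g030590-1.1 had 0 counts in nic1 nic2, 0.955 ± 0.295 CPM in myc2a (SD, n = 5), at most 0.0603 CPM in nic1 nic2 myc2a and 1.56 ± 0.722 CPM in K326. Their bounds were only 3.65-fold and 7.36-fold lower in nic1 nic2 (edgeR adjusted p = 0.0379 and 0.018). Of the 29 gene models nearly absent in nic1 nic2, 15 had a mean under 0.5 CPM in nic1 nic2 myc2a and 9 also in K326. Of the 19 nearly absent in myc2a, 3 were that low in nic1 nic2 myc2a and 7 in K326. A mean under 0.5 CPM need not be below the myc2a level. Ntab13g005430-1.1 was at 0.215 CPM in myc2a, 0.295 CPM in nic1 nic2 myc2a and 0.169 CPM in K326. By mean log2 CPM, nic1 nic2 myc2a was nearer to nic1 nic2 in 11 of the 29 and nearer to myc2a in 18.

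Farther on in ID group 19, neighbouring gene models differed in opposite directions. Ntab19g031540-1.1 had 13.3, 11.7 and 13.4 CPM in nic1 nic2, against 0.156, 0.2065, 0.217, 0.0583 and 0 CPM in myc2a (log2 fold change 6.61 ± 0.46 by edgeR, adjusted p = 1.61e-07). It was also high in nic1 nic2 myc2a (11.5 ± 2.77 CPM) and low in K326 (0.233 ± 0.127 CPM, SD, n = 4 each). Next to it, Ntab19g031560-1.1, Ntab19g031570-1.1 and Ntab19g031580-1.1 were lower in nic1 nic2, with summed levels of 139, 108 and 118 CPM, against 194, 271, 230, 214 and 258 CPM in myc2a. The log2 fold changes were -0.94 in each (edgeR adjusted p = 0.018, 0.0191 and 0.018), and the sums were 114 ± 25.9 CPM in nic1 nic2 myc2a and 266 ± 53.0 CPM in K326. Over the 16 libraries the level of Ntab19g031570-1.1 was 1.28 to 1.31 times that of Ntab19g031560-1.1, and that of Ntab19g031580-1.1 0.888 to 0.919 times, so these gene models may share reads and are uncertain as 3 separate results. Their calls were lost together without nic1 nic2 replicate 2 (edgeR adjusted p-values of 0.0868 to 0.0916) or 3 (0.0904 to 0.0975) and without myc2a replicate 2 (0.0534 to 0.0565), with a lowest adjusted p of 0.000223 over the alternatives.

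A set of gene models with at least 100 CPM in myc2a roots was far lower in nic1 nic2 roots. With a change over 4-fold as the other limit, both chosen after values were seen, there were 9, and each was lower in nic1 nic2 with no overlap between the groups. Together they made up 288, 335 and 388 CPM in nic1 nic2 replicates 1 to 3, against 1586, 1937, 2483, 2270.02 and 2295 CPM in myc2a replicates 1 to 5. The means were 337 ± 49.8 CPM in nic1 nic2 (SD, n = 3) and 2114 ± 355 CPM in myc2a (SD, n = 5). The 4 nic1 nic2 myc2a libraries were at the nic1 nic2 level, with 350 ± 64.2 CPM. K326 was the highest, at 3479, 10106, 3531 and 2545 CPM in replicates 1 to 4, so that every K326 library exceeded every myc2a library.

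These 9 came from 8 ID groups, and no 2 of them were neighbours. Ntab24g000460-1.1 had 76.9, 83.8 and 147 CPM in nic1 nic2 and 319, 456, 479, 415 and 558 CPM in myc2a (log2 fold change -2.12 ± 0.31 by edgeR, adjusted p = 0.0017). Ntab06g021890-1.1 had 58.5, 81.7 and 77.6 CPM in nic1 nic2 and 293, 360.4, 510.1, 446 and 428 CPM in myc2a (log2 fold change -2.49 ± 0.31 by edgeR, adjusted p = 0.000313). Ntab04g010910-1.1 had 30.2, 50.5 and 44.5 CPM in nic1 nic2 and 212, 308, 369.9, 321 and 314 CPM in myc2a (log2 fold change -2.87 ± 0.37 by edgeR, adjusted p = 0.000357). In each of these the highest nic1 nic2 library was under the lowest myc2a library by more than the range of nic1 nic2.

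The steepest differences of the 9 were in Ntab08g023550-1.1, with 2.06, 5.41 and 5.52 CPM in nic1 nic2 and 90.5, 112, 153, 139.6 and 160.5 CPM in myc2a (log2 fold change -4.92 by edgeR, adjusted p = 0.000462), and Ntab21g008710-1.1, with 2.87, 5.83 and 5.78 CPM in nic1 nic2 and 71.0, 105, 137, 141 and 153 CPM in myc2a (log2 fold change -4.65 by edgeR, adjusted p = 0.000462). Ntab15g006110-1.1 (log2 fold change -3.64), Ntab16g014330-1.1 (-2.79), Ntab12g001120-1.1 (-2.51) and Ntab12g015220-1.1 (-2.31) completed the set. The call of Ntab16g014330-1.1 was lost without nic1 nic2 replicate 2 (edgeR adjusted p = 0.0511, range 2.79e-05 to 0.0511), and that of Ntab12g001120-1.1 without nic1 nic2 replicate 2 (0.0635) or 3 (0.0969, range 0.000303 to 0.0969). The other 7 calls held under all 19 alternatives.

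**Figure D4:**
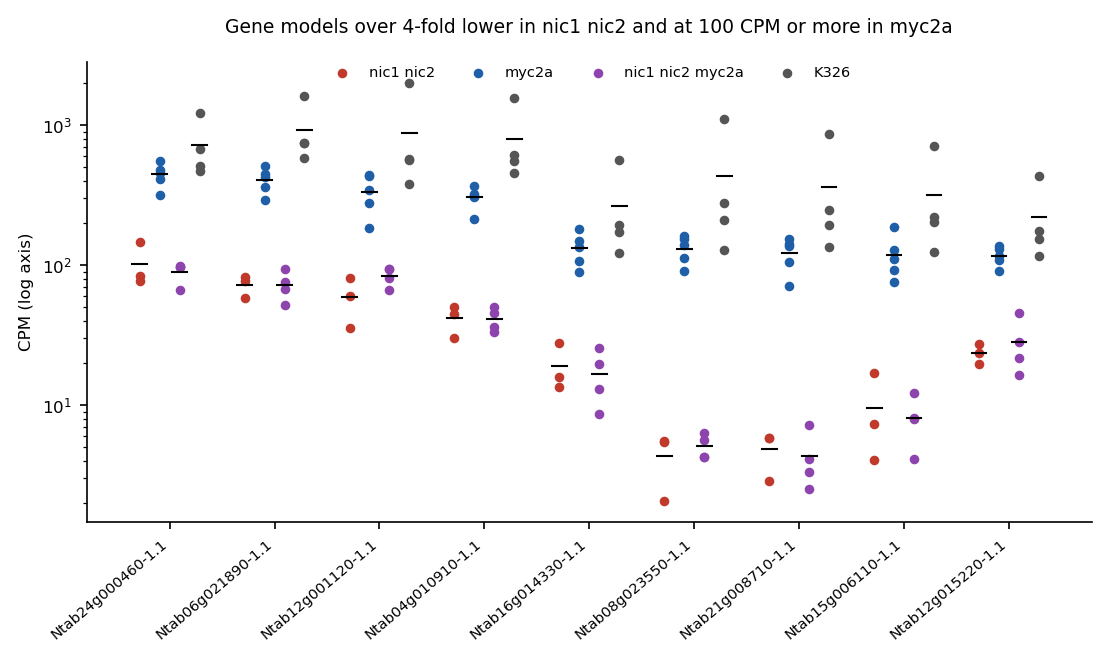
CPM in each library (points, log axis) and mean per genotype (bars) of the 9 gene models at 100 CPM or more in myc2a that were over 4-fold lower in nic1 nic2. In every one, nic1 nic2 (red) and nic1 nic2 myc2a (purple) lay below myc2a (blue), and the K326 mean (grey) was the highest.

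Ntab12g015220-1.1 was also part of a run of 3 neighbours in ID group 12. Ntab12g015220-1.1, Ntab12g015230-1.1 and Ntab12g015240-1.1 summed to 25.3, 35.7 and 41.4 CPM in nic1 nic2, against 153, 199, 272, 199 and 265 CPM in myc2a, 37.9 ± 19.9 CPM in nic1 nic2 myc2a and 539 ± 373 CPM in K326 (SD, n = 4 each). The log2 fold change was -3.36 ± 0.70 for Ntab12g015230-1.1 and -3.11 ± 0.68 for Ntab12g015240-1.1 (edgeR adjusted p = 0.0263 and 0.0346). Relative to Ntab12g015220-1.1 the level of Ntab12g015230-1.1 varied from 0.0623 to 1.24 times over the 16 libraries, so these neighbours did not keep 1 ratio. The call of Ntab12g015230-1.1 was lost without nic1 nic2 replicate 1 (0.0693), 2 (0.0898) or 3 (0.103) or myc2a replicate 3 (0.0588), with a lowest adjusted p of 0.000329 over the alternatives. The call of Ntab12g015240-1.1 was lost without nic1 nic2 replicate 1 (0.0753), 2 (0.0949) or 3 (0.103) or myc2a replicate 2 (0.0678), 3 (0.0774) or 4 (0.0565), with a lowest adjusted p of 0.00121.

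No such difference was found in the other direction. Of 10 gene models higher in nic1 nic2 with a mean of 100 CPM or more there, 0 were over 4-fold. This was so for 9 of the 14 lower ones with that mean in myc2a. Both limits were chosen after values were seen, so these counts describe the calls and do not test a difference between the directions. The 5 with the most counts among those higher in nic1 nic2 were under 2-fold. Ntab21g002260-1.1 had 488, 529 and 438 CPM in nic1 nic2 and 227, 239.9, 370.0, 252 and 263 CPM in myc2a (log2 fold change 0.84 ± 0.20 by edgeR, adjusted p = 0.0485). Ntab10g004860-1.1 had 373, 410.2 and 427 CPM in nic1 nic2 and 263, 233, 190.2, 259 and 225 CPM in myc2a (log2 fold change 0.79 ± 0.15 by edgeR, adjusted p = 0.0124). Ntab05g001850-1.1 was at 279 ± 57.8 CPM in nic1 nic2 and 164 ± 31.3 CPM in myc2a (SD, n = 3 and 5). Ntab02g003810-1.1 was at 276 ± 34.5 CPM in nic1 nic2 and 179 ± 22.6 CPM in myc2a (SD, n = 3 and 5). Ntab14g002680-1.1 was at 184 ± 19.4 CPM in nic1 nic2 and 108 ± 12.8 CPM in myc2a.

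All 5 of these calls were lost without nic1 nic2 replicate 2 or 3. Without replicate 2 the edgeR adjusted p was 0.134 for Ntab21g002260-1.1, 0.0549 for Ntab10g004860-1.1, 0.0696 for Ntab05g001850-1.1, 0.0589 for Ntab02g003810-1.1 and 0.0969 for Ntab14g002680-1.1. Over all alternatives the adjusted p of Ntab10g004860-1.1 ranged from 4.81e-05 to 0.0699, and that of Ntab21g002260-1.1 from 0.0035 to 0.134. In this last gene model myc2a replicate 3 was far above its replicates, and the call held without it but was lost without nic1 nic2 replicate 1 (0.0749) and without myc2a replicate 1 (0.0594), 2 (0.125) or 4 (0.113). Leaving out myc2a replicate 2, 3 or 4 also ended the calls of Ntab05g001850-1.1 (0.103, 0.109 and 0.0891) and Ntab02g003810-1.1 (0.073, 0.0996 and 0.0921, and 0.0974 without nic1 nic2 replicate 1), and replicate 2 or 3 that of Ntab14g002680-1.1 (0.0645 and 0.0629).

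The gene model with the most counts of all those called outside the stretches was Ntab10g002480-1.1. It had 379, 384 and 323 CPM in nic1 nic2 and 618, 851, 932, 738 and 825 CPM in myc2a. Its log2 fold change was -1.13 ± 0.23 (edgeR adjusted p = 0.024), and it was at 357 ± 68.3 CPM in nic1 nic2 myc2a and 1130 ± 449 CPM in K326. The call was lost without nic1 nic2 replicate 1 (0.0503), 2 (0.0716) or 3 (0.122) or myc2a replicate 2 (0.0632) or 3 (0.0642), with a lowest adjusted p of 9.44e-05.

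The libraries outside the contrast place these differences between the lines. For each gene model called outside the stretches, the mean log2 CPM of K326 and of nic1 nic2 myc2a was set on a scale from 0 at the myc2a mean to 1 at the nic1 nic2 mean. Of the 130 gene models lower in nic1 nic2, K326 was nearer to myc2a in 121 (93.1%), and nic1 nic2 myc2a was nearer to nic1 nic2 in 53 (40.8%). Of the 127 higher in nic1 nic2, K326 was nearer to myc2a in 101 (79.5%), and nic1 nic2 myc2a was nearer to nic1 nic2 in 69 (54.3%). These are descriptions of means, with no test. The gene models were called on these same nic1 nic2 and myc2a libraries, which favours those where the smaller nic1 nic2 group is extreme. That alone can place other libraries nearer to myc2a. Shares over all gene models tested were not computed, so there is no baseline for the percentages.

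By size of the change, again with no test, the placement was as follows. Among the 24 gene models over 4-fold lower in nic1 nic2 and not nearly absent, K326 was nearer to myc2a in 22 and beyond the myc2a mean in 17, and nic1 nic2 myc2a was nearer to nic1 nic2 in 18. Their median positions were -0.28 for K326 and 0.97 for nic1 nic2 myc2a. Among the 19 nearly absent in myc2a, both sets of libraries were mostly on the nic1 nic2 side, 13 of 19 for K326 and 16 of 19 for nic1 nic2 myc2a. Among the 29 nearly absent in nic1 nic2, K326 was nearer to myc2a in 25 and nic1 nic2 myc2a in 18. Of the 70 higher and 57 lower gene models under 2-fold, K326 was nearer to myc2a in 65 and 56, and nic1 nic2 myc2a was nearer to nic1 nic2 in 28 and 18. From 2-fold to 4-fold there were 28 higher and 20 lower gene models, with K326 nearer to myc2a in 25 and 18, and nic1 nic2 myc2a nearer to nic1 nic2 in 18 and 6.

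**Figure D5:**
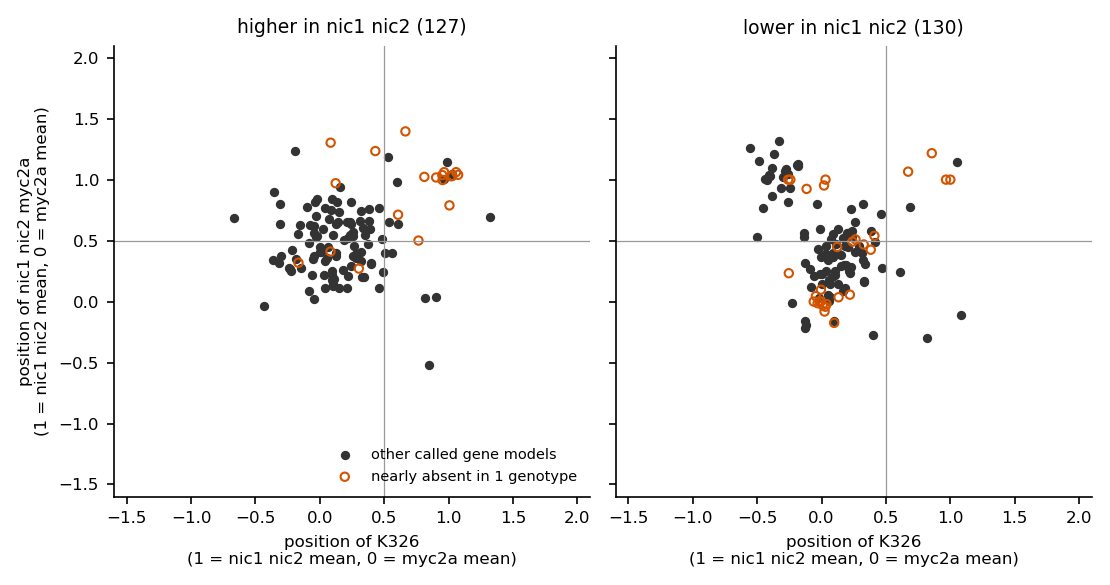
Position of K326 (x axis) and of nic1 nic2 myc2a (y axis) for each gene model called outside the stretches, on a log2 CPM scale where the myc2a mean is 0 and the nic1 nic2 mean is 1, for the 127 higher (left) and the 130 lower (right) in nic1 nic2. Points left of the vertical line at 0.5 have K326 nearer to myc2a, 101 on the left panel and 121 on the right, and open circles mark gene models nearly absent in 1 of the genotypes.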

How the data were processed

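The deposited table held whole-number counts per gene model and library, which the authors made with HISAT2 2.1.0, SAMtools and bedtools after FastQC, per the submitters' processing notes. The genome build, annotation and counting settings are not given in the sources used here. Between 59.7 and 65.6% of low counts were even, so both mates of a pair may have been counted. Columns were assigned by name, with 0 unused; those of nic1 nic2 myc2a carry the letters of their titles in reverse order. Of 63697 identifiers, 0 matched the RefSeq table of symbols, so gene lists could not be applied and no sequence is shown.

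Counts were analysed with edgeR 4.0.16 in R 4.3.3: filterByExpr, TMM scaling, a quasi-likelihood fit of all 16 libraries, 1 mean for each genotype (12 residual degrees of freedom), contrast nic1 nic2 minus myc2a, and Benjamini-Hochberg adjustment over 43009 gene models, threshold 0.05. The standard error is the log2 fold change divided by the root of its F value. Stretch levels are medians of log2 ratios with 0.5 CPM added. Bounds allow 3 counts per library in the lower genotype. Runs join calls of 1 direction at most 100 serial numbers apart. Named gene models were called, at 2 CPM or more in the higher genotype and without overlap: outside the stretches the 10 largest differences and the 5 with the most counts in each direction, in each stretch the 3 largest in each direction, and all members of runs of 3 or more. Others are said to be chosen after values were seen, or are further nearly absent gene models under 2 CPM in the higher genotype. The further ones were outside this rule and were also picked after values were seen. Their calls were not followed singly over the alternatives. The members, stretches and lists were chosen with earlier results of these data known. Alternatives were other scalings, no filter, DESeq2 1.42.0, limma-voom (limma 3.58.1), only the 8 libraries, a replicate block, halved counts, a robust fit and leaving out each library. The procedure was tested on simulated data. Replicates of both genotypes differed by more than sampling noise in each pair.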

Additional observations from a re-analysis of the deposited data

Results flagged for a closer look

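In 79 groups of 4 or 5 libraries the highest or lowest library was set against the others. It stood apart by Dixon's 95% limit in 13 groups. For independent groups with normal spread, chance gives about 1 in 20. Here some groups had no counts and could not be flagged, and some shared gene models, so the rates are not comparable. In the stretch of ID group 11, myc2a replicate 1 stood apart with a median of 95.59% of the nic1 nic2 mean, against 53.79 to 55.81% in the other 4 myc2a libraries. This library was also the highest for a member of that stretch, Ntab11g020300-1.1 (1099 CPM, the others 352 to 493 CPM). The same library was the highest for Ntab11g019180-1.1 (57.41 CPM, the others 20.3 to 27.6 CPM), which is lower in nic1 nic2, and for Ntab22g011660-1.1 (0.2851 CPM, the others at most 0.0815 CPM).

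For myc2a replicate 5, Ntab18g020500-1.1 was low (14.35 CPM, the others 38.5 to 45.0 CPM), Ntab24g014140-1.1 was high (14.87 CPM, the others 7.96 to 9.72 CPM) and Ntab22g024750-1.1 was high (0.4404 CPM, the others at most 0.0583 CPM). For myc2a replicate 3, Ntab21g002260-1.1 was high (370.0 CPM, the others 227 to 263 CPM), as was Ntab08g028890-1.1 (0.4075 CPM, the others at most 0.1032 CPM). Ntab08g028930-1.1 had counts in myc2a replicate 2 alone among the myc2a libraries (0.1032 CPM).

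Outside the contrast, the pair of ID group 7 from 12920 had counts in nic1 nic2 myc2a replicate 1 alone among the libraries of that genotype (0.05842 CPM), and the pair of ID group 19 from 30530 in replicate 4 alone (0.06033 CPM). The summed level of the 9 gene models at 100 CPM or more in myc2a and over 4-fold lower in nic1 nic2 was 10110 CPM in K326 replicate 2, against 2545 to 3531 CPM in the other K326 libraries. The causes were not tested.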

How the results depend on the processing

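In each of the 19 alternatives the stretch of ID group 18 held 92 or more calls except on the 8 libraries alone (50), with at most 1 call higher in nic1 nic2. Leaving out 1 library gave 215 to 1371 calls in all, 81 to 1126 outside the stretches, 25 to 405 in the stretch of ID group 11 and 92 to 129 in that of ID group 18. DESeq2 called 1715 gene models (1314 outside, 251 in ID group 11), limma-voom with sample quality weights 1167 (703 and 334), and edgeR on the 8 libraries alone 134 (78 and 6). In ID group 11 there were also 134 calls with library size only, 129 with limma-voom and 33 without both nic1 nic2 replicate 3 and myc2a replicate 5, an alternative chosen after seeing the data. Without these libraries the total was 440, but 102 higher and 338 lower. The median log2 fold change of all gene models was -0.00184 with TMM scaling, 0.00157 with RLE size factors and 0.0641 with library size only.

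The level of nic1 nic2 in ID group 18 was 55.74% of myc2a with library size only, 61.06% with 2 CPM added and 51.09% for members of at least 2 CPM. That of myc2a replicates 2 to 5 in ID group 11 was 52.84, 62.18 and 52.49% of nic1 nic2 under the same settings. For calls made on the 8 libraries alone, K326 was nearer to myc2a in 57.6% of those higher in nic1 nic2, and nic1 nic2 myc2a nearer to nic1 nic2 in 66.7% of the higher and 71.1% of the lower ones. For the lower calls of DESeq2 that share was 25.2%.

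Replicate numbers did not pair the samples: the deviations of same-numbered libraries correlated at 0.0823, -0.0233 and -0.121. With the number as a replicate block, 503 gene models were called (146 higher, 357 lower), 307 of them among the 451. That block also takes myc2a replicate 5 out of the contrast, as no other genotype has a replicate 5. Of the 48 gene models named by the rule, 24 kept their call in every alternative tested and 24 lost it in at least 1, most often without nic1 nic2 replicate 2 (18) or 3 (17), and 0 changed direction. The causes were not tested. With 3 and 5 libraries, gene models under 1 CPM were rarely called at the difference seen in the stretches, so depth limits what could be found there.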
